A study of Mus musculus with 6 samples.

Results

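The p53 pathway genes examined here comprised 32 mouse genes, chosen by name with earlier results of these data known. They were the Mdm regulators of p53, p53 itself, and targets that act in cell cycle arrest, cell death, DNA repair and metabolism. Of these, 29 genes were read by 56 probe sets that the platform annotation assigns to exactly 1 symbol, among 18193 genes in all. Trp53, Bax and Gdf15 are not analysed here. RNA came from haematopoietic stem and progenitor cells (HSPCs), marrow cells sorted as lineage negative and positive for c-Kit and Sca1, from mice of a B6/129 background. The Med12 KO group (3 arrays) came from Med12Flox;MxCre mice, in which an interferon-inducible Cre recombinase removes Med12, a gene of the kinase module of the Mediator complex. The control group (3 arrays) is described only as control, without a genotype or a statement on Cre. Both groups were sorted 4 days after pI:pC, a double-stranded RNA that induces interferon, so both had received that stimulus. Mx-driven Cre acts in many interferon-responsive cells and not in HSPCs alone. Nothing in the labels says that the arrays come from separate animals, so p-values reflect the spread among these 6 arrays, which may be technical.

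The transcription factor p53 is held at a low level by Mdm2, which marks it for degradation, and by Mdm4, which blocks its activation domain. After DNA damage or other stress it accumulates, binds DNA through pairs of a 10-letter element, and recruits the transcription machinery, Mediator included, to genes that stop the cell cycle, start apoptosis, repair DNA or curb growth. In haematopoietic stem cells p53 is known to support quiescence and to remove damaged cells. Many of its targets also answer to other factors, so a target's level does not report p53 activity by itself.

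The p53 decamer, the 10-letter element named above, was searched for in promoter sequence from RefSeq on GRCm38.p6, in windows of 300 bases from 250 before to 50 after each annotated start. Only exact matches of the pattern RRRCWWGYYY were counted, where R is A or G, W is A or T and Y is C or T. The element is symmetrical, so that a match on either strand is a match on the other, and no other motif was searched. It occurred in 8.36% of all 32851 windows and in 10 of the 29 windows found for 22 of the measured genes, which were listed as p53 targets to begin with. The 10 windows hold the same Aen decamer in both windows of that gene. No usable window was available for Trp53inp1. A pair of decamers with a gap of at most 13 bases occurred in 0.0731% of all windows and, among the measured genes, in 1 window of Cdkn1a. Stretches around the decamer, written in capitals, are shown for Cdkn1a, the best known target, for Ccng1, Aen and Ckap2, whose signals were higher on every Med12 KO array, and for Sesn1, whose signals were lower. Mdm2, Polk, Ei24 and Gadd45a also held a decamer and are not shown. A match describes letters and is not a measured binding site.
Cdkn1a (chr17:29090856-29090987, + strand): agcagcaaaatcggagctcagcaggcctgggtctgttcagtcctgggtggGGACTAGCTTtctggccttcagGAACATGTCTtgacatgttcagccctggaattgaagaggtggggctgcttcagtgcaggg
Ccng1 (chr11:40755412-40755521, - strand): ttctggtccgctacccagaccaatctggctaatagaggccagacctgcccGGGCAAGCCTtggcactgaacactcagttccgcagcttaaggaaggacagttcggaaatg
Aen (chr7:78895887-78895996, + strand): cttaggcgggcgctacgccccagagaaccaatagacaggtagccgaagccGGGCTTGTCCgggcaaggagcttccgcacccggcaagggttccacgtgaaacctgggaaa
Ckap2 (chr8:22185963-22186069, - strand): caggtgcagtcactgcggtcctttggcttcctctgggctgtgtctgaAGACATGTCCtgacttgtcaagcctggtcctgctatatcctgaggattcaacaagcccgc
Sesn1 (chr10:41887216-41887325, + strand): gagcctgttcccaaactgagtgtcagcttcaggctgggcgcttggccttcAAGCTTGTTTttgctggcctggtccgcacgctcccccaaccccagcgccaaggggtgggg
The Cdkn1a decamers begin 73 and 51 bases before the more upstream of its annotated starts and are 12 bases apart. The stretch directly after the later of them misses the pattern at its first letter alone, so it was not marked. The Ccng1 decamer begins 185 bases and the Ckap2 decamer 203 bases before the start. The Aen decamer lies 121 bases before the later and 10 bases after the earlier of its annotated starts. That of Sesn1 begins 173 bases before the more downstream of its annotated starts.

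The arrays gave 1 linear signal per probe set. The median signal was 16.5 to 21.3 on Med12 KO arrays and 26.7 to 26.9 on control arrays, and 45.5% to 49.5% of Med12 KO signals were under 16, against 41.6% to 42.3% of control signals. Med12, read by a single probe set, had signals of 89.1, 100.4 and 86.4 in Med12 KO and 278.6, 837.4 and 441.6 in controls (log2 difference -2.17, SE 0.38, limma adjusted p = 0.0796). The files do not place that probe set inside or outside the floxed exons. All log2 differences are Med12 KO minus control of signal + 16, which understates the change of dim genes, and a difference was called at a Benjamini-Hochberg adjusted p under 0.05 over all 45037 probe sets. In all 343 probe sets were called, 99 higher and 244 lower in Med12 KO, and with each array centred on its median 693 were called, 431 higher and 262 lower. Centring moved the median difference of all genes by 0.27, to 0.22 from -0.05.

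The p53 pathway did not move in a single direction in Med12 KO HSPCs. Of the 29 genes, each represented by its brightest probe set, 15 had higher and 14 lower signal in Med12 KO, a split that became 17 and 12 after quantile normalization and 18 and 11 after median centring. Ccng1, Aen, Phlda3, Ckap2, Dcxr and Zfp365 were higher on all 3 Med12 KO arrays than on any control array, and Trp53inp1, Sesn1, Ddit4, Btg2 and Polk were lower on all 3. None of the 29 passed limma's test on its brightest probe set, against 0.989% of all genes called, while 10 had an unadjusted p under 0.05. Among these, 6 were higher (20.7% of the 29, against 7.83% of all genes) and 4 were lower (13.8%, against 10.3% of all genes). A further probe set of Trp53inp1 did pass, and it was the only call among the 56 probe sets, against 0.762% of all probe sets called and 0.542% called lower. An unadjusted p under 0.05 was reached by 18 of the 56 (32.1%), against 15.7% of all probe sets, with 10 higher (5.81% of all probe sets) and 8 lower (9.89%). The groups did not overlap in 18 of the 56, against 20.9% of all probe sets, with 10 higher (7.61%) and 8 lower (13.3%). The median difference of the 29 genes was 0.10, or 0.16 relative to the median of all genes, and it was -0.03, 0.17 and -0.08 without control replicates 1, 2 and 3.

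The shares of p53 genes whose groups stood apart were above those of all genes for genes higher in Med12 KO and near them for genes lower in Med12 KO. The groups did not overlap for 11 of the 29 genes (37.9%), against 23.4% of all genes. Of the 29, 6 were higher in Med12 KO (20.7%, against 9.85% of all genes) and 5 were lower (17.2%, against 13.5% of all genes). The 6 include Zfp365, whose signals were low on every array. The 5 include Polk, which was at 0.02 by the mean of its probe sets. An unadjusted p under 0.05 was reached by 34.5% of the 29 genes, against 18.1% of all genes. The p53 genes are brighter than the average gene, and among genes of the brighter 50% of probe sets the shares were 39.1% of 23 p53 genes against 25.6% of 10598 genes for the unadjusted p, and 43.5% against 29.7% for groups that did not overlap. Within that brighter set the shares were not split by direction. The median size of the difference in that brighter set, whatever its sign, was 0.60 for p53 genes and 0.36 for all genes. These shares are descriptions of a list of known targets and were not tested as a set. The list was chosen with earlier results of these data known, so the shares are not independent of the data. The number of arrays limits the precision.

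**Figure D1:**
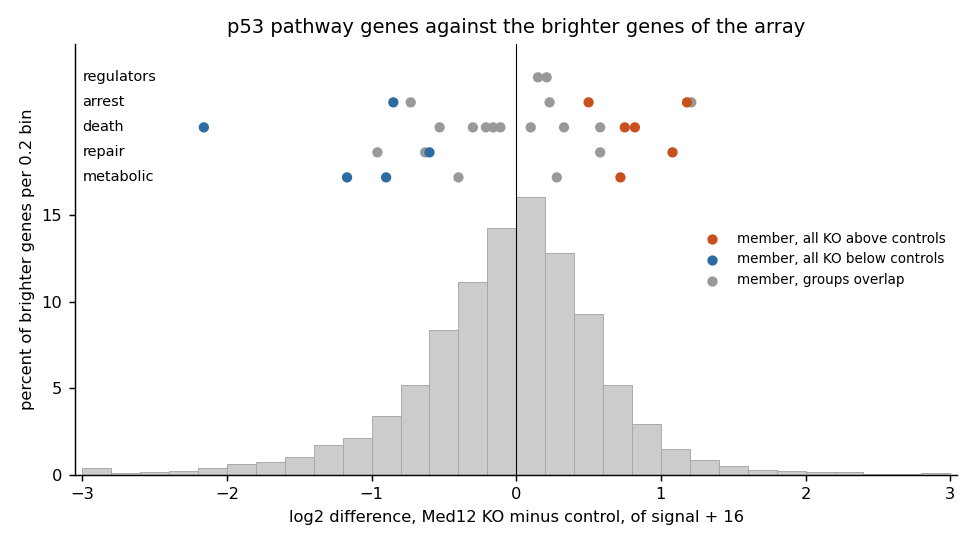
Log2 differences (Med12 KO minus control, of signal + 16, on the x axis) of the 29 p53 genes, as dots in 5 rows by function. Below them is the distribution of the 10598 genes of the brighter 50% of probe sets (grey bars, percent of genes per bin of 0.2). That brighter set holds only 23 of the 29 p53 genes. The end bars also hold genes beyond -3 and 3. Dots in orange are genes whose Med12 KO signals all lay above the control signals (6 genes), dots in blue those whose Med12 KO signals all lay below (5 genes); they stand on both sides of 0, and Trp53inp1 is farthest out at -2.16.

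Mdm2 and Mdm4, the measured regulators of p53, showed no shift beyond the spread of the arrays. Mdm2 had signals of 451.8, 302.4 and 569.5 in Med12 KO and 383.0, 450.4 and 288.3 in controls. The groups overlapped, and the log2 difference was 0.21 (SE 0.28, 95% interval -0.47 to 0.89, adjusted p = 0.788). Its other probe sets gave 0.04 and -0.77, the last of them a dimmer one with means of 47.8 ± 22.2 in Med12 KO and 90.7 ± 26.5 in controls (SD, n = 3 each). Mdm2 is itself a p53 target, and its probe sets did not share a sign. Mdm4 had signals of 348.2, 243.2 and 426.0 in Med12 KO and 307.9, 410.8 and 205.2 in controls (log2 difference 0.15, 95% interval -0.61 to 0.91). The groups overlapped here too, and 2 of the 4 Mdm4 probe sets had positive and 2 had negative differences.

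Among the 6 arrest genes, Ccng1 and Ckap2 were higher on every Med12 KO array, Btg2 was lower, and Cdkn1a showed no separation of the groups. The groups thus did not overlap for 3 of the 6 (50%), against 23.4% of all genes. Cdkn1a encodes p21, the inhibitor of cyclin-dependent kinases through which p53 halts the cycle in G1. Its signals were 278.0, 333.6 and 283.9 in Med12 KO and 171.9, 292.9 and 314.0 in controls. The Med12 KO values lay within a narrow band inside or just above the range of the controls. The log2 difference was 0.23 (SE 0.24, 95% interval -0.37 to 0.83, adjusted p = 0.723), and it turned to -0.03 without control replicate 1. The second Cdkn1a probe set gave 0.25 (adjusted p = 0.801).

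Ccng1, which encodes cyclin G1, a partner of protein phosphatase 2A that acts on Mdm2, was higher in each of its 3 probe sets. The brightest gave 836.8, 878.2 and 906.4 in Med12 KO and 606.7, 570.5 and 667.9 in controls. All 3 Med12 KO signals lay above all 3 control signals, with a log2 difference of 0.50 (SE 0.12, adjusted p = 0.138). The second gave 1049.0, 577.2 and 917.4 in Med12 KO and 552.1, 544.7 and 521.6 in controls (0.59, adjusted p = 0.306). The dimmest gave 249.9, 264.9 and 418.2 in Med12 KO and 161.4, 130.4 and 242.2 in controls (0.76, adjusted p = 0.290). In each probe set the groups did not overlap, although the nearest arrays were close in the second and the dimmest.

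Ckap2, which encodes a spindle microtubule protein and whose promoter stretch is shown above, had signals of 172.0, 250.8 and 286.7 in Med12 KO and 74.8, 120.0 and 89.8 in controls. Its mean was 236 ± 58.7 in Med12 KO and 94.9 ± 23 in controls (SD, n = 3 each). The log2 difference was 1.18, with an SE of 0.24 (adjusted p = 0.103). The groups were well apart, and the adjusted p lay between 0.0554 and 0.257 over all settings tried. The mitotic kinase gene Cdk1 was higher on the same arrays (log2 difference 1.10, adjusted p = 0.0981), and its part in the Ckap2 difference was not tested. Btg2, an antiproliferative cofactor of mRNA decay, had signals of 232.5, 296.7 and 116.4 in Med12 KO and 310.8, 478.3 and 355.6 in controls. Every Med12 KO signal was below every control signal, by a small margin at the nearest arrays (log2 difference -0.85, SE 0.35, adjusted p = 0.325). The second Btg2 probe set was at -0.65 with groups that overlapped.

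Zmat3, an RNA-binding splicing regulator, had signals of 252.8, 61.6 and 85.4 in Med12 KO and 42.4, 76.0 and 16 in controls. Its log2 difference of 1.21 (SE 0.58, adjusted p = 0.395) was led by Med12 KO replicate 1, and the groups overlapped. Plk2, a stress-induced kinase of the cell cycle, was dim, at 2.5, 12 and 1.8 in Med12 KO and 5.0, 55.1 and 12.1 in controls. Only control replicate 2 stood clear of the low signals (log2 difference -0.73, adjusted p = 0.537).

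**Figure D2:**
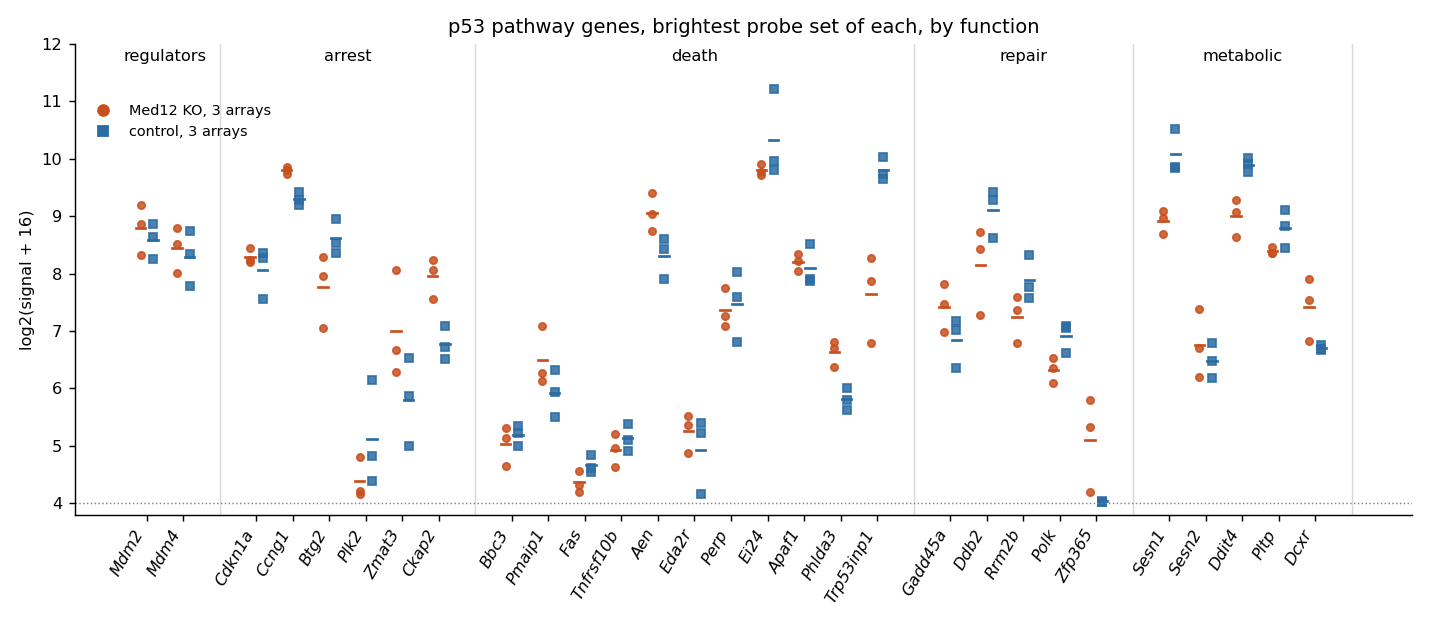
Log2(signal + 16) (y axis) of the brightest probe set of each of the 29 p53 genes, grouped by function, on each array; orange circles are the 3 Med12 KO arrays, blue squares the 3 control arrays, short bars the group means, and the dotted line the level of a signal of 0. Trp53inp1, Sesn1 and Ddit4 sit lower in Med12 KO, while Ccng1, Ckap2, Aen and Phlda3 sit higher; Bbc3, Fas, Tnfrsf10b, Plk2 and Eda2r lie near the bottom of the scale in both groups.

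Among the 11 measured death genes, Trp53inp1 was far lower, Aen and Phlda3 were higher, and the death receptors and BH3-only genes were dim or did not separate. Groups without overlap made up 27.3% of the 11, against 23.4% of all genes. Trp53inp1 encodes a stress protein that promotes p53 phosphorylation and autophagy. Its second probe set, 1416927_at, had signals of 32, 14.8 and 28.4 in Med12 KO and 205.2, 203.7 and 194.4 in controls. The control arrays were nearly identical, and all 3 Med12 KO arrays were far below them. This probe set fell by 2.43 on the log2 scale (SE 0.19, adjusted p = 0.0268). The call was lost without any 1 of the 6 arrays, with adjusted p from 0.0700 to 0.0967, while the log2 difference stayed between -2.55 and -2.23. With the replicate block in limma the call was lost as well (adjusted p = 0.151).

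The brightest Trp53inp1 probe set, 1416926_at, gave the same order at higher signals, 294.2, 218.2 and 94.4 in Med12 KO and 786.9, 839.7 and 1034.9 in controls. Its mean was 202 ± 101 in Med12 KO and 887 ± 131 in controls (SD, n = 3 each). The log2 difference was -2.16, with an SE of 0.39 (adjusted p = 0.0846). Med12 KO replicate 3 was lowest, and without it the difference was -1.73. The probe set passed at an adjusted p of 0.0293 where limma's prior was trended and robust and at 0.0268 without the dimmer 50% of probe sets, and the mean of both probe sets passed as well (adjusted p = 0.0154). These were the only 3 of 15 settings that passed, and limma's adjusted p reached 0.197, with the replicate block.

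**Figure D3:**
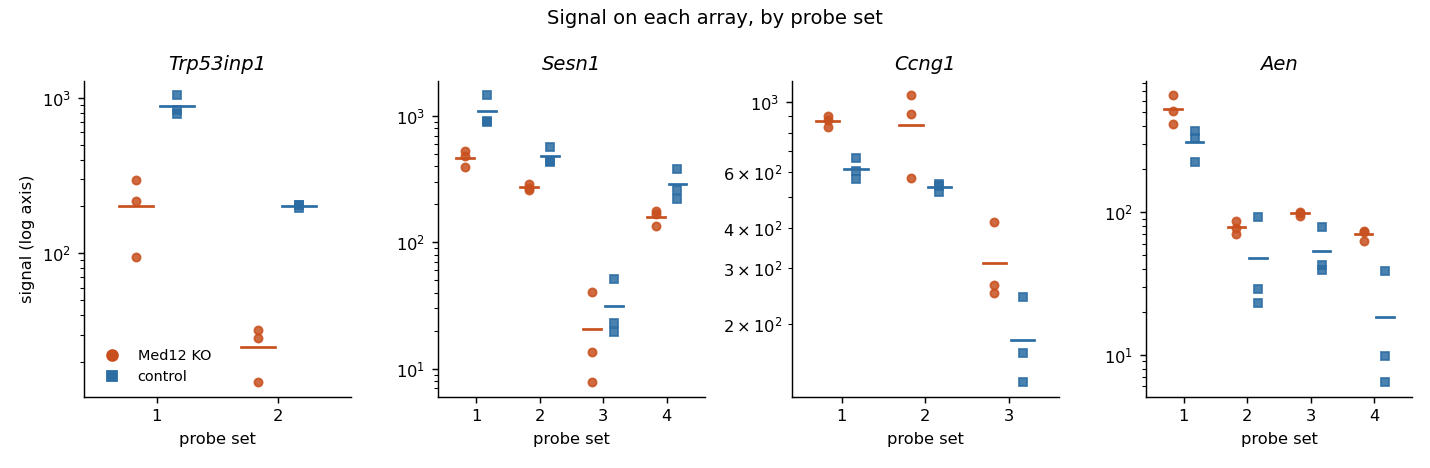
Signal (y axis, log scale) on each array for every probe set (x axis, numbered with the brightest first) of Trp53inp1, Sesn1, Ccng1 and Aen; orange circles are the 3 Med12 KO arrays, blue squares the 3 control arrays, and short bars the group means. Med12 KO lies below the controls in both Trp53inp1 probe sets and in 3 of 4 Sesn1 probe sets, and above them in all 3 Ccng1 and 3 of 4 Aen probe sets.

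Aen, a nuclease that promotes apoptosis, had positive differences in all 4 of its probe sets. The brightest gave 414.0, 511.4 and 657.4 in Med12 KO and 370.4, 329.1 and 224.3 in controls (log2 difference 0.75, SE 0.25, adjusted p = 0.237). The groups did not overlap there or in 2 of the other probe sets, at 0.75 and 1.44 (adjusted p = 0.204 and 0.137), and they overlapped in the last (0.71, adjusted p = 0.461). Phlda3, a repressor of the survival kinase Akt, had signals of 87.9, 67.0 and 95.5 in Med12 KO and 33.5, 48.1 and 39.6 in controls. All Med12 KO signals were above all controls, with a log2 difference of 0.82 (SE 0.17, adjusted p = 0.108).

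The remaining death genes gave no separation of the groups. Pmaip1, which encodes the BH3-only protein Noxa, had signals of 119.3, 61.2 and 54.2 in Med12 KO and 45.0, 63.7 and 29.0 in controls (log2 difference 0.58, adjusted p = 0.468). Bbc3, the gene of the BH3-only protein Puma, was dim at 9.1, 19.0 and 23.6 in Med12 KO and 15.9, 21.1 and 24.8 in controls. At these signals its difference of -0.16 turned to 0.10 after quantile normalization and 0.12 after median centring. The death receptor gene Fas had signals of 7.7, 2.3 and 4.0 in Med12 KO and 8.3, 12.7 and 7.3 in controls, and that of Tnfrsf10b averaged 14.8 ± 6.05 in Med12 KO and 19.4 ± 5.89 in controls. Both were within the range where close to 50% of all probe sets lie, so that the added 16 leaves little room for a difference. Tnfrsf10b was at -0.21, which turned to 0.03 after quantile normalization and 0.07 after median centring. Eda2r, a receptor of the same family, averaged 22.8 ± 8.43 in Med12 KO and 16.3 ± 12.8 in controls.

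Apaf1, the scaffold of the apoptosome, averaged 279 ± 29.8 in Med12 KO and 264 ± 74.1 in controls (log2 difference 0.10, 95% interval -0.42 to 0.62). Perp, a membrane protein of desmosomes and apoptosis, averaged 152 ± 41.8 in Med12 KO and 173 ± 75.2 in controls, and its difference of -0.11 turned to 0.17 after median centring. Ei24, a membrane protein of the endoplasmic reticulum, had signals of 828.9, 948.1 and 857.0 in Med12 KO and 881.1, 2367.7 and 982.0 in controls. Control replicate 2 alone was high, and the difference of -0.53 (adjusted p = 0.579) was -0.08 without that array.

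The 5 repair genes included no call and went in both directions. Groups without overlap made up 40% of the 5, against 23.4% of all genes. Ddb2, which recognises ultraviolet damage for nucleotide excision repair, had signals of 408.4, 330.3 and 138.4 in Med12 KO and 665.4, 377.3 and 609.8 in controls. Med12 KO replicate 3 was lowest, and Med12 KO replicate 1 lay above control replicate 2, so that the groups overlapped (log2 difference -0.96, SE 0.43, adjusted p = 0.358). The second Ddb2 probe set gave -0.78 (adjusted p = 0.401). Polk, a translesion DNA polymerase, had signals of 65.5, 52.4 and 76.2 in Med12 KO and 120.5, 116.8 and 82.0 in controls. The groups did not overlap (log2 difference -0.60, SE 0.19, adjusted p = 0.224), but the dimmer second probe set was at 0.64 (adjusted p = 0.407), and the mean of both was at 0.02.

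Rrm2b, the p53-inducible small subunit of ribonucleotide reductase, likewise had probe sets of both signs. The brightest averaged 140 ± 41.4 in Med12 KO and 226 ± 68.2 in controls (log2 difference -0.63, adjusted p = 0.364), and the other 3 were at 0.57, 0.49 and -0.08. Gadd45a, a stress protein of repair and the G2 checkpoint, had signals of 209.2, 161.5 and 110.3 in Med12 KO and 113.0, 128.2 and 65.5 in controls. Med12 KO replicate 3 lay among the controls, so that the groups overlapped (log2 difference 0.58, SE 0.30, adjusted p = 0.435). Zfp365, whose human counterpart is linked to genome stability, had signals of 24.1, 2.4 and 39.6 in Med12 KO and 0.2, 0.5 and 0.3 in controls. All of these are low on this array, the log2 difference of 1.08 (adjusted p = 0.279) depends on the added constant (2.20 with 4 and 0.40 with 64), and the second probe set was at 0.00.

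Of the 5 measured metabolic genes 2 were higher and 3 lower in Med12 KO, and none passed on its brightest probe set. The groups did not overlap for Sesn1, Ddit4 and Dcxr, or 60% of the 5, against 23.4% of all genes. Sesn1, a sestrin that restrains the growth kinase complex mTORC1 when amino acids are short, had signals of 395.2, 482.7 and 526.0 in Med12 KO and 1455.7, 903.6 and 916.0 in controls. The groups were far apart, with means of 468 ± 66.6 in Med12 KO and 1092 ± 315 in controls (SD, n = 3 each; log2 difference -1.17, SE 0.23, adjusted p = 0.0978). A second probe set averaged 274 ± 16.9 in Med12 KO and 480 ± 79.8 in controls (-0.77, SE 0.15, adjusted p = 0.0999), and another averaged 160 ± 22.4 in Med12 KO and 288 ± 84.2 in controls (-0.76, adjusted p = 0.199). The groups did not overlap in either of these, while in the dim remaining probe set they did (-0.41). The mean of the 4 probe sets of Sesn1 passed in a fit over genes (log2 difference -0.78, adjusted p = 0.0300). That was the only 1 of 15 settings in which Sesn1 passed, and limma's adjusted p reached 0.224 in the others.

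Ddit4, which encodes REDD1 and restrains mTORC1 through the TSC complex, had signals of 519.4, 609.7 and 383.3 in Med12 KO and 853.0, 943.0 and 1019.0 in controls. No Med12 KO signal reached a control signal (log2 difference -0.90, SE 0.20, adjusted p = 0.116), and over all settings tried the difference lay between -1.04 and -0.62. Sesn2, a sestrin that also restrains mTORC1, did not separate the groups, with 151.4, 88.5 and 57.2 in Med12 KO and 94.9, 72.8 and 56.9 in controls (0.28, adjusted p = 0.760). Dcxr, a carbonyl and xylulose reductase, had signals of 222.4, 170.5 and 97.7 in Med12 KO and 86.4, 91.6 and 85.7 in controls. Its controls were nearly alike and all Med12 KO signals exceeded them, the lowest by little (log2 difference 0.72, SE 0.28, adjusted p = 0.294). Pltp, the phospholipid transfer protein gene, averaged 320 ± 14.3 in Med12 KO and 435 ± 102 in controls (-0.40, adjusted p = 0.389).

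**Figure D4:**
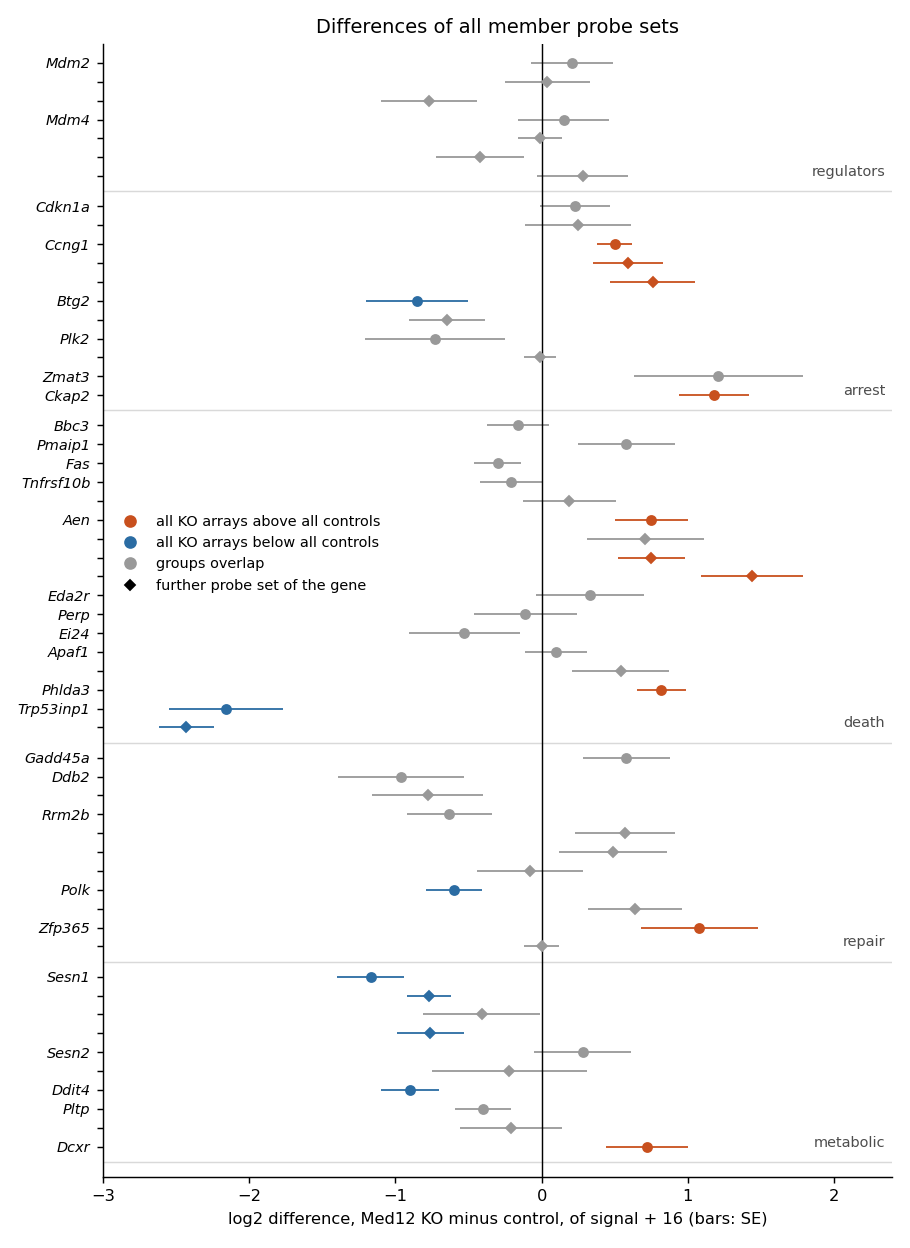
Log2 difference (Med12 KO minus control, of signal + 16; x axis) with its SE for all 56 probe sets of the 29 p53 genes (y axis, by function), with circles for the brightest probe set of a gene and diamonds for the others. Orange marks probe sets whose 3 Med12 KO signals lay above all controls (10), blue those below (8) and grey those that overlapped (38); Trp53inp1, Sesn1, Ccng1 and Aen repeat their direction across probe sets, while Mdm2, Polk and Rrm2b do not.

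Across genes, repeated probe sets shared a sign in 11 of the 17 genes that had several. The same share over all genes was not computed. The 11 include Plk2 and Zfp365, whose second probe sets were very dim and at -0.01 and 0.00. Of the 11 genes whose groups did not overlap, Med12 KO replicate 3 was farthest from the controls in 8, replicate 1 in 2 and replicate 2 in 1. The farthest array was not counted over all genes, so these counts have no background beside them. Replicate 3 also had the lowest median signal of the 6 arrays, and the part of that in these differences was not tested. Without it, 9 of the 29 genes had an unadjusted p under 0.05, against 13.4% of all genes, and the median difference of the 29 was -0.03.

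Upstream of p53, the damage kinases and protein modifiers had differences of both signs. Of 23 measured genes of this list, 13 were higher and 10 lower, 0 passed, and the median difference was 0.02. An unadjusted p under 0.05 was reached by 4 (17.4%, against 18.1% of all genes), and the groups did not overlap for 8 (34.8%, against 23.4% of all genes). Of the 4, 3 were higher (7.83% of all genes) and 1 was lower (10.3%). Of the 8, 6 were higher (9.85% of all genes) and 2 were lower (13.5%), so most of those that stood apart were higher in Med12 KO. Sirt1, a deacetylase of p53, had signals of 172.9, 189.4 and 173.7 in Med12 KO and 114.6, 103.2 and 126.3 in controls (log2 difference 0.58, SE 0.13, adjusted p = 0.113). Hipk2, a kinase that phosphorylates p53, averaged 952 ± 14 in Med12 KO and 710 ± 93.7 in controls (0.42, adjusted p = 0.224). The acetyltransferase gene Crebbp averaged 900 ± 86.2 in Med12 KO and 1270 ± 112 in controls (-0.49, adjusted p = 0.179). It passed in 1 of 15 settings, the mean of its probe sets (-0.78, adjusted p = 0.0475), and was at -0.22 after median centring (adjusted p = 0.442). For these 3 genes no Med12 KO signal fell inside the control range.

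A second list of 27 measured p53 targets outside the 29 genes was also divided, with 11 higher and 16 lower, 0 that passed and a median difference of -0.06. An unadjusted p under 0.05 was reached by 5 (18.5%, against 18.1% of all genes). Of these, 1 was higher (7.83% of all genes) and 4 were lower in Med12 KO (10.3% of all genes). The groups did not overlap for 8 (29.6%, against 23.4% of all genes), with 3 higher (9.85% of all genes) and 5 lower (13.5%). Xpc, which recognises damage in nucleotide excision repair as Ddb2 does, had signals of 185.7, 131.0 and 120.1 in Med12 KO and 387.3, 297.3 and 463.7 in controls. The groups were far apart (log2 difference -1.30, SE 0.23), and the adjusted p of 0.0798 became 0.0432 without the dimmer 50% of probe sets. Dram1, a lysosomal protein of autophagy, had signals of 25.3, 16.7 and 34.6 in Med12 KO and 231.5, 63.0 and 120.2 in controls (-1.76, SE 0.43, adjusted p = 0.140). Glipr1 was at -0.54 (adjusted p = 0.119) by its brightest probe set, but at 0.04 by the mean of its probe sets.

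The apoptosis and cell cycle machinery outside the p53 list held no call either. A list of the BCL2 family and caspases also held Cycs, the cytochrome c gene. Of its 17 measured genes, 5 were higher and 12 lower, and 0 passed. Only Cycs had an unadjusted p under 0.05 (1 gene or 5.88%, against 18.1% of all genes), with a log2 difference of 0.50 (adjusted p = 0.277). Mcl1, a survival gene of stem cells, averaged 1875 ± 210 in Med12 KO and 2549 ± 436 in controls (-0.43, adjusted p = 0.322), and Bad was at 0.46 (adjusted p = 0.372). Of 19 cyclins, cyclin-dependent kinases and their inhibitors, 11 were higher and 8 lower, 0 passed and 8 had an unadjusted p under 0.05 (42.1%, against 18.1% of all genes), each of them higher in Med12 KO, against 7.83% of all genes. The inhibitor gene Cdkn2c had signals of 440.5, 428.8 and 423.2 in Med12 KO and 256.5, 204.7 and 240.5 in controls (0.84, SE 0.13, adjusted p = 0.0610). Cdk1 averaged 1418 ± 229 in Med12 KO and 658 ± 153 in controls, and Ccnd3, which encodes cyclin D3, averaged 1020 ± 128 in Med12 KO and 574 ± 81.8 in controls (0.81, adjusted p = 0.103). These 3 cell cycle genes did not overlap between groups, and each passed after median centring (adjusted p = 0.0361 for Cdkn2c, 0.0493 for Cdk1 and 0.0406 for Ccnd3). The mean of all Ccnd3 probe sets was at 0.04, however.

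Markers of other blood cell types differed between the groups on the same arrays. In bulk RNA, fewer cells of a type and less RNA per cell cannot be told apart. Of 12 erythroid markers 6 rose, against 0.352% of all genes, and their summed signal was 8812.4 to 13706.0 in Med12 KO and 3623.4 to 4447.2 in controls, with Rhag at 2.87, Blvrb at 1.81 and Car1 at 1.76 (log2). In all, 11 of the 12 were higher. The exception, named after its values were seen, was Slc4a1, the red cell anion exchanger, with signals of 11.8, 13.9 and 13.2 in Med12 KO and 23.2, 185.8 and 69.3 in controls (log2 difference -1.60, adjusted p = 0.260), groups that did not overlap. Of 10 granulocyte-monocyte markers 6 fell, against 0.638% of all genes, and their sum was 1000.0 to 1982.2 in Med12 KO and 9159.6 to 17169.1 in controls, with Elane at -5.44, Irf8 at -4.06 and Ctsg at -3.10. Of 11 early lymphoid markers 6 fell, and their sum was 600.2 to 1619.5 in Med12 KO and 4576.9 to 7002.8 in controls, with Dntt at -5.59, Lax1 at -1.95 and Rag2 at -2.46. No marker was at exactly 0 on any array, and the haemoglobin gene Hba-a1 was the only erythroid marker under 16 on all 6. With any 1 array left out, 0 to 10 of the 45037 probe sets passed, so these counts rest on having all 6. The part of these shifts in the p53 gene differences was not tested.

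Of the genes used for the sort, Kit was measured, and 5 other genes of stem and progenitor cell surface proteins were read beside it. Of these 6 genes 5 were lower and 1 was higher in Med12 KO, and 0 passed. The c-Kit gene Kit had signals of 514.8, 556.2 and 617.5 in Med12 KO and 805.2, 1014.6 and 1425.4 in controls (log2 difference -0.89, adjusted p = 0.152). Cd34 was at -1.43 (adjusted p = 0.132) and Flt3 at -3.87 (adjusted p = 0.0573), while Slamf1, the gene of CD150, had overlapping groups with means of 195 ± 53.6 in Med12 KO and 145 ± 92 in controls (0.49, adjusted p = 0.642; chosen after its values were seen). The 6 genes summed to 2316.9 to 2969.6 in Med12 KO and 5386.3 to 8158.6 in controls. The Sca1 gene is not analysed here. The 7 measured lineage markers were low in both groups, summing to 52.4 to 130.3 in Med12 KO and 132.0 to 286.0 in controls, with Cd79a at -1.46, Cd8a at -0.35 and Cd3e at -0.36, and none passed.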

How the data were processed

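Total RNA (5 ng) of sorted HSPCs was amplified and biotin-labelled, per the labels' protocols. The authors deposited 1 linear signal intensity per probe set and array. The submitters' processing notes name RMA, but the values are linear, hold exact zeros and share a trimmed mean of about 150 on all arrays, so the step that made them is not given in the sources used here. Of 45101 probe sets 64 controls were left out. The platform annotation of 2016 gave 34945 of the other 45037 a single symbol, 932 several and 9160 none, and genes were named only from the first class.

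Values were analysed as log2(signal + 16) with limma 3.58.1 (R 4.3.3; lmFit, then eBayes) across all probe sets (two-sided; 4 residual and 1.96 prior degrees of freedom; Benjamini-Hochberg threshold 0.05). A gene's brightest probe set has the highest mean of these log2 values over the 6 arrays. Means and SDs are of deposited signals. Every member was named, and from each other list up to 3 genes by lowest unadjusted p. Members, lists and the offset were chosen with earlier results of these data known. The fit was tested on simulated data. All 6 value columns were used. Alternatives were a replicate block, quantile normalization, median centring, offsets of 4 and 64, a trended robust prior, leaving out the dimmer 50% of probe sets or each array, and averaging probe sets. Arrays of the same number were not treated as pairs in the main fit. Their deviations were nearly uncorrelated across groups, which cannot settle whether they were handled together. With the replicate block 0 probe sets passed. Sequences are from RefSeq promoter windows of GRCm38.p6.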

Additional observations from a re-analysis of the deposited data

How the results depend on the processing

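The count of p53 genes called was 0, and it was 1 with a trended robust prior, 1 without the dimmer 50% of probe sets and 2 (Trp53inp1 and Sesn1) with the mean of all probe sets. Over all probe sets 343 passed, against 693 after median centring and 763 without the dimmer 50%, where fewer probe sets were tested. With 1 array left out 0 to 10 passed, and with the replicate block 0 passed in limma (6752 at an unadjusted p under 0.05). Same-numbered arrays correlated in their deviations from the group means at 0.019, 0.019 and 0.002, and no array correlated best with its own number. With 3 arrays per group, these values cannot settle whether same-numbered arrays were handled together. The median difference of the p53 genes was 0.38 after median centring, where that of all genes was 0.22. The counts at an unadjusted p under 0.05 (7 to 13 of the p53 genes, beside 13.4% to 23.2% of all genes) and without overlap (10 to 15, beside 22% to 35.2%) were added after the data were seen. Several differences changed sign, and not only small ones, since Polk, Rrm2b and Glipr1 were at -0.60, -0.63 and -0.54 in the main fit. Median centring gave 0.12 for Bbc3, 0.17 for Perp and 0.07 for Tnfrsf10b, and quantile normalization gave 0.10 for Bbc3 and 0.03 for Tnfrsf10b. The mean of all probe sets gave -0.17 for Mdm2, 0.00 for Mdm4, 0.02 for Polk, 0.09 for Rrm2b and 0.04 for Glipr1. Leaving out 1 array moved Apaf1 between -0.01 and 0.31, Bbc3 between -0.30 and 0.03, Cdkn1a between -0.03 and 0.38, Eda2r between -0.05 and 0.57, Mdm4 between -0.10 and 0.37, Perp between -0.44 and 0.17 and Sesn2 between -0.03 and 0.56. The cause of these changes was not tested beyond what is stated. Dim signals limit Fas, Plk2, Bbc3, Tnfrsf10b, Eda2r and Zfp365.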
